A study of Mus musculus with 12 samples.

Results

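The genes described here are 10 genes of the intestinal epithelium, namely Cdx1, Cdx2, Vil1, Lgr5, Muc2, Fabp2, Cdh17, Tff3, Krt20 and Aoc1. They were taken by symbol from count tables that list 38986 genes, and 8 of the 10 were among the 18405 genes that passed a filter on low counts. Cdx1 and Fabp2 did not pass. Each was followed across 12 bulk RNA-seq libraries of mouse teratomas, 3 in each of 4 groups.

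The teratomas grew from R1 mouse embryonic stem (ES) cells carrying the lentiviral vector pEZ-LV235, whose constitutive CAG promoter drives the insert. The ET group carried the vector without Dnmt3L, the WT group carried wild-type Dnmt3L, and the K238R and K412R groups carried Dnmt3L with a lysine replaced by arginine, which removes an acetylation site. Dnmt3L is a catalytically inactive partner of the de novo DNA methyltransferases. All groups were ES cell lines selected with puromycin, injected under the skin of male immunodeficient NOD-PrkdcEM1 mice at 8 weeks of age, and RNA was taken at day 21. The comparison of WT with ET asks what added Dnmt3L does to differentiation in the tumour, and the comparisons of the K238R and K412R constructs with WT were designed to ask whether this depends on the acetylation sites. The transgene is not restricted to any cell type, the lines had been through drug selection, and a dissected tumour can also hold blood, vessels and stroma of the host mouse.

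The intestinal epithelium is a single sheet of cells renewed from stem cells at the base of the crypts, which carry the Wnt co-receptor Lgr5. Their progeny become absorptive enterocytes, with a brush border that holds villin, or secretory cells, among them the mucus-making goblet cells. The homeobox factors Cdx1 and Cdx2 give the epithelium its intestinal identity. Teratomas can form gut-like glands, but most of these genes are also used elsewhere. Cdx2 acts in trophectoderm and in the posterior embryo, Tff3 in other mucous glands, Krt20 in the urothelium, Aoc1 in kidney and placenta, and Lgr5 in many embryonic tissues.

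Total counts ran from 16957677 to 18546100 per library, so that 1 count was worth 0.0526 to 0.0595 CPM, the count scaled to a common library size. CPM here is scaled by the trimmed mean of M values (TMM), and it compares a gene between libraries, not one gene with another, since it is not per length. Dnmt3l itself stood at 3.52 ± 3.72 CPM in ET (SD, n = 3), 194 ± 27.0 in WT, 1.17 ± 0.665 in K238R and 34.7 ± 8.52 in K412R. The K238R-labelled libraries therefore held no more Dnmt3l transcript than the empty-vector control, and they are called K238R-labelled throughout. What they hold goes against their label, so their comparison with WT cannot be read as a test of that acetylation site. The K412R libraries held 5.60-fold less Dnmt3l transcript than WT, without overlap. In their comparison with WT, the amount of transcript and the changed lysine cannot be told apart. ET replicate 2 and WT replicate 1 were the libraries that resembled the other groups more than their own. Their mean Pearson r over the genes tested was 0.967 and 0.978 with their own group, against 0.981 and 0.979 with the other groups.

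The label of the 10 genes was checked against further genes of the same epithelium. Of 28 other enterocyte and brush border genes, 12 never reached 10 counts in any library, and 12 passed the filter. Defining genes of the mature enterocyte, chosen here after their values were seen, were at or near 0. Fabp1, a fatty acid-binding protein, reached at most 3 counts in a library, sucrase-isomaltase (Sis) at most 4, and intestinal alkaline phosphatase (Alpi) at most 1. Guca2b, which encodes uroguanylin, was at 0 in all 12 libraries, a count that allows up to 0.158 to 0.179 CPM per library (3 counts, counting error only). Others of the 28 were counted more, with up to 699 counts for Anpep, 370 for Cubn and 263 for Mttp. Only 2 of 7 Paneth cell genes and 7 of 13 other goblet cell genes passed the filter, whereas 14 of 14 other stem and crypt genes and 14 of 14 genes of epithelia in general did. The data thus held epithelial transcripts but few or no counts of the genes picked for the mature enterocyte. The 10 genes are described below by name and not as a tissue.

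**Figure D1:**
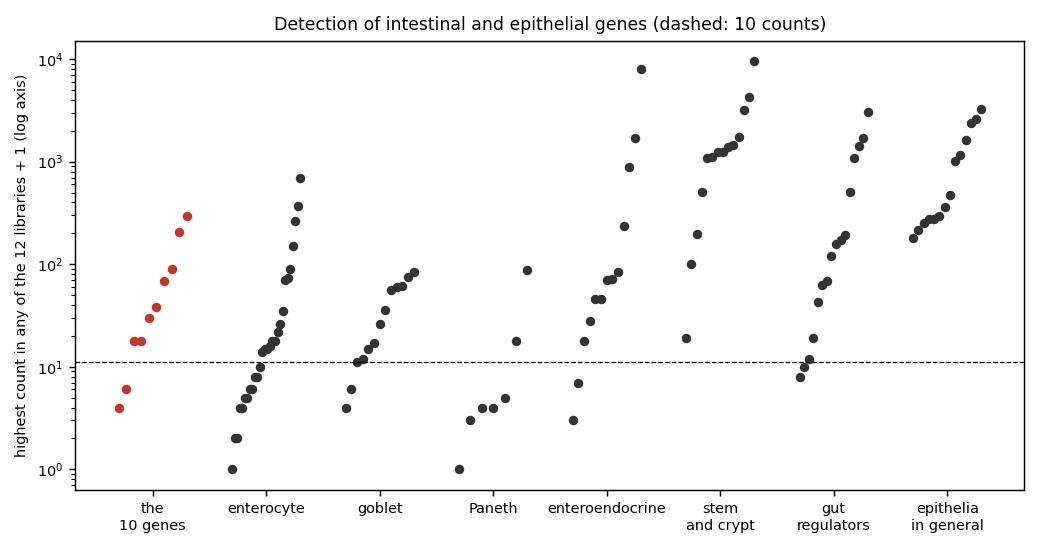
Highest count that each gene reached in any of the 12 libraries, on a log axis after adding 1, for the 10 genes and 7 further lists. The dashed line is at 10 counts. 12 of 28 enterocyte genes and 5 of 7 Paneth cell genes stayed below it, and no gene of epithelia in general did.

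Cdx1 and Cdx2 are the homeobox regulators of intestinal identity. Cdx1 was counted at most 3 times in a library and was at 0 in 5 of 12. It was read 2, 1 and 1 times in ET, 1, 0 and 0 times in WT, 2, 3 and 0 times in the K238R-labelled libraries and 0, 0 and 1 times in K412R, so that no difference was detectable at this depth.

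Cdx2 was at 0.730, 0.992 and 0.620 CPM in ET and at 0.555, 0.0566 and 0 CPM in WT, replicates in order. It was at 0.635, 0.335 and 0.526 CPM in the K238R-labelled libraries and at 0.626, 0.525 and 0.376 CPM in K412R. All ET libraries lay above all WT libraries, while WT replicate 1 lay within the range of the K238R-labelled libraries and within that of K412R. The WT to ET log2 fold change was -1.87 ± 0.76 (SE), with an adjusted p of 0.140 by edgeR's quasi-likelihood test and Benjamini-Hochberg adjustment. The differences of the K238R-labelled libraries and of K412R from WT were 1.24 ± 0.78 (adjusted p = 0.408) and 1.26 ± 0.79 (adjusted p = 0.351). The cutoff of the filter on low counts (0.559 CPM by library totals) was reached by 3 ET libraries and by 1 library of each other group. WT replicate 1 held 10 of the 11 Cdx2 counts of its group. Without it, the WT to ET difference had an adjusted p of 0.0316 (6.93% of all genes called in that fit), that of K412R from WT 0.0328 (5.37%) and that of the K238R-labelled libraries from WT 0.0772. Only 1 WT count was then left, against 41 in ET, a ratio of ET to WT of 26.8 with an exact 95% interval of 4.55 to 1085 that covers counting error only. The library left out held most of the WT counts, so the size of this ratio follows from leaving it out. Without WT replicate 2 or 3 instead, the WT to ET log2 fold change was -1.44 or -1.33 (adjusted p = 0.335 and 0.368). In a bulk sample, fewer cells of a type and less RNA per cell cannot be told apart.

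Krt20 is an intermediate filament keratin of differentiated enterocytes and goblet cells. The 250 bases before its start in the RefSeq annotation (GRCm38.p6, chr11:99438154-99438403, minus strand) are printed because a core of the CDX binding motif can be read in them, and Krt20 was one of the genes at its lowest in WT. Capitals mark the core TTTAT or its reverse complement ATAAA.

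Krt20: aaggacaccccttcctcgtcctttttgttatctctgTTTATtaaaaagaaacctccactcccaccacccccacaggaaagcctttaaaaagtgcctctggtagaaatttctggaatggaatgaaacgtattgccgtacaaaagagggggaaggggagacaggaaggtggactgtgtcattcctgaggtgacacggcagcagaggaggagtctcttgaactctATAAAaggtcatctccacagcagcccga

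The core lay 214 and 28 bases before the start, and the second match overlapped a TATAAA box 29 bases before it. TTTAT was in 37.3% of all 32851 RefSeq promoter windows of the same length and TATAAA in 12.4%, both strands searched, so the matches are a description of the letters. Krt20 was at 4.94, 1.69 and 3.33 CPM in ET and at 1.50, 1.30 and 2.26 CPM in WT. The K238R-labelled libraries held 3.12, 3.07 and 3.68 CPM and K412R held 4.78, 2.56 and 3.71 CPM. All K238R-labelled and all K412R libraries lay above all WT libraries, and in ET only replicate 2 fell within the WT range. The log2 fold changes were -0.98 ± 0.38 for WT to ET (adjusted p = 0.133), 0.96 ± 0.38 for the K238R-labelled libraries to WT (adjusted p = 0.228) and 1.13 ± 0.38 for K412R to WT (adjusted p = 0.119). Without ET replicate 2, the first had a log2 fold change of -1.28 with an adjusted p of 0.0159, and the last had 1.14 with an adjusted p of 0.0419, in fits that called 31.0% and 8.20% of all genes. For both differences this was the only 1 of 12 fits with 1 library left out that passed. Among the others the adjusted p reached 0.398 and 0.350.

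Aoc1 encodes diamine oxidase, the secreted enzyme that breaks down histamine in the gut lumen. The annotation gives it 2 starts, and the bases before both are shown because Aoc1 carried the clearest difference among the 10 genes. They lie at chr6:48895005-48895254 and chr6:48904736-48904985 (GRCm38.p6, plus strand), with the CDX core in capitals.

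Aoc1 start 1: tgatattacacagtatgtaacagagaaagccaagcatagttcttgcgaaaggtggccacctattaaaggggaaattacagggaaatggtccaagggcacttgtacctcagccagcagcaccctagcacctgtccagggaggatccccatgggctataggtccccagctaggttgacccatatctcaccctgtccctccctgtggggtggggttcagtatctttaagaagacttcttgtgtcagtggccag
Aoc1 start 2: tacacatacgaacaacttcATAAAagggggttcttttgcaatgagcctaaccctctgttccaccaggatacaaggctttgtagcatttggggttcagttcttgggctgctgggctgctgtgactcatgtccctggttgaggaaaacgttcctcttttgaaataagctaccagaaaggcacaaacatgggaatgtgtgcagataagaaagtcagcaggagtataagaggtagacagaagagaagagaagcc

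The first window held no match to the core, and the second held 1, 231 bases before the start. Of the other genes, RefSeq windows were matched for Cdx2, Vil1, Fabp2 and Muc2. Cdx2 and Vil1 held no core, Fabp2 held 1 (65 bases before the start) and Muc2 held 2 (173 and 167 bases before it, the first overlapping a TATAAA box).

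Aoc1 was at 0.898, 1.23 and 0.902 CPM in ET and at 2.28, 2.66 and 3.51 CPM in WT. It was at 0.212, 0.391 and 0.316 CPM in the K238R-labelled libraries and at 0.854, 1.57 and 3.65 CPM in K412R. The K238R-labelled libraries lay below every other library, ET lay below WT without overlap, and K412R spanned the ranges of both ET and WT. Aoc1 fell 9.04-fold in the K238R-labelled libraries against WT (log2 fold change -3.18 ± 0.52, adjusted p = 0.0446), the only one of the 8 genes to pass the threshold of 0.05 in any of 5 comparisons. It was called in that comparison among 0.174% of all genes tested. The call was close to the threshold. With 1 library left out it was lost without ET replicate 1 (adjusted p = 0.0588), WT replicate 2 (0.172), WT replicate 3 (0.168), K412R replicate 2 (0.0687) or K238R-labelled replicates 1, 2 and 3 (0.159, 0.0949 and 0.198), while the log2 fold change stayed between -3.38 and -2.97. Aoc1 passed the filter through the other groups, since 0 of the 3 K238R-labelled libraries reached its cutoff of 0.559 CPM. Against ET, the same libraries differed by -1.70 ± 0.54 (adjusted p = 0.805). The WT to ET difference was 1.48 ± 0.46 (adjusted p = 0.111), and K412R differed from WT by -0.47 ± 0.44 (adjusted p = 0.536).

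Cdh17 encodes LI-cadherin, the cell adhesion protein of the intestinal epithelium. It was at 0.561, 0.292 and 0.225 CPM in ET, at 0.389, 0.963 and 0.893 CPM in WT, at 0.159, 0.335 and 0.210 CPM in the K238R-labelled libraries and at 0.512, 0.291 and 0.645 CPM in K412R. All WT libraries lay above all K238R-labelled libraries, with a log2 fold change of -1.65 ± 0.53 (adjusted p = 0.167), and the other groups overlapped. No library held more than 17 counts of it.

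Vil1 encodes villin, the actin-bundling protein of the brush border. Its values were 0.730, 1.05 and 1.63 CPM in ET, 1.0, 0.510 and 0.774 CPM in WT, 0.900, 1.12 and 0.999 CPM in the K238R-labelled libraries and 1.20, 0.350 and 0.591 CPM in K412R. All groups overlapped with WT, and its adjusted p was 0.404 to 0.917 in the comparisons with WT. Fabp2, the intestinal fatty acid-binding protein, was read at most 5 times, in WT replicate 2, and was at 0 in 8 of 12 libraries, including all of K412R. Its counts were too few for a comparison.

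**Figure D2:**
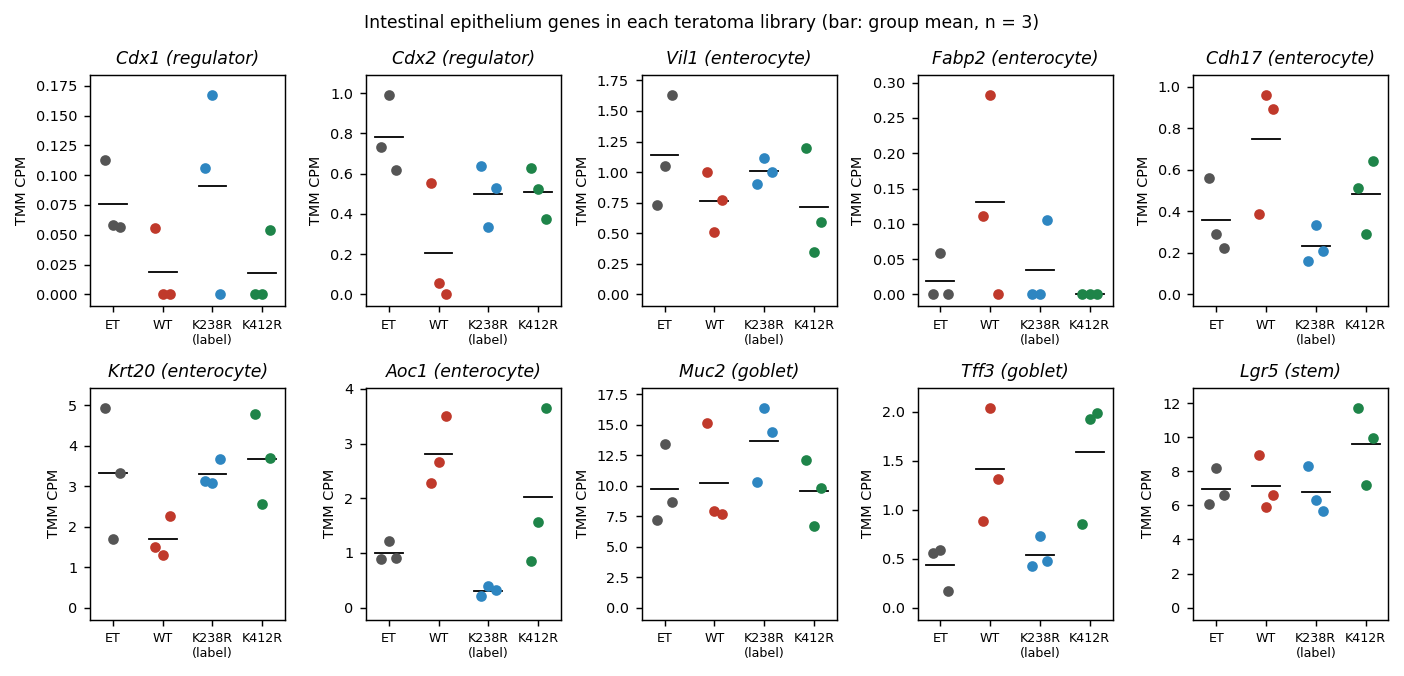
TMM-scaled CPM of each of the 10 genes in each library (points), by group, with a bar at the group mean (n = 3). The axes differ between panels. Aoc1 is lowest in the 3 K238R-labelled libraries (0.212 to 0.391 CPM) and highest on average in WT, whereas Lgr5 and Muc2 overlap between all groups.

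Tff3 is a trefoil peptide that goblet cells secrete with mucin. It was at 0.561, 0.584 and 0.169 CPM in ET and at 0.889, 2.04 and 1.31 CPM in WT. The K238R-labelled libraries held 0.423, 0.726 and 0.473 CPM and K412R held 0.854, 1.92 and 1.99 CPM. WT and K412R lay above ET and above the K238R-labelled libraries without overlap. The log2 fold change was 1.68 ± 0.51 for WT to ET (adjusted p = 0.111), -1.38 ± 0.50 for the K238R-labelled libraries to WT (adjusted p = 0.201), and 1.84 ± 0.51 for K412R to ET (adjusted p = 0.426). K412R and WT differed by 0.17 ± 0.46 (adjusted p = 0.843). Without ET replicate 2, the adjusted p of the WT to ET difference was 0.0337 for Tff3 and 0.0384 for Aoc1, in the fit that called 31.0% of all genes. It was the only 1 of 12 fits with 1 library left out that called either. Among the others the adjusted p reached 0.390 for Tff3 and 0.388 for Aoc1.

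Muc2, the gel-forming mucin of the intestine, was at 7.19, 13.4 and 8.62 CPM in ET, 15.1, 7.93 and 7.68 CPM in WT, 10.3, 16.4 and 14.4 CPM in the K238R-labelled libraries and 12.1, 6.70 and 9.78 CPM in K412R. All groups overlapped, and in the 5 comparisons made no difference exceeded 0.49 ± 0.32 on the log2 scale (K238R-labelled libraries to ET, adjusted p = 0.805). Lgr5, the receptor of the crypt stem cell, was at 6.06, 8.17 and 6.59 CPM in ET, 8.94, 5.89 and 6.61 CPM in WT, 8.31, 6.31 and 5.68 CPM in the K238R-labelled libraries and 11.7, 7.17 and 9.94 CPM in K412R. Its groups overlapped too, and its K412R to WT difference was 0.43 ± 0.23 (adjusted p = 0.291).

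**Figure D3:**
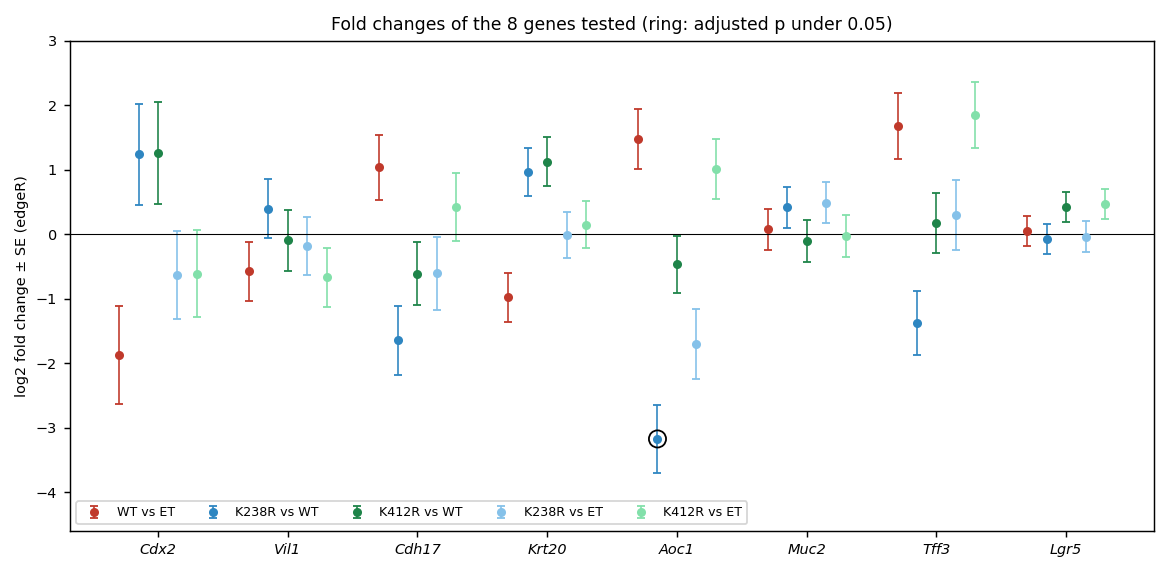
Log2 fold change ± SE of the 8 tested genes in 5 comparisons (edgeR). The ringed point, Aoc1 in the K238R-labelled libraries against WT at -3.18, is the only one with an adjusted p under 0.05.

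Counted over the 8 tested genes, WT and ET did not overlap in 3 (Cdx2, Tff3 and Aoc1), beside 20.7% of all genes tested. None passed the adjusted threshold by edgeR, beside 0.0489% of all genes tested, 4 had an unadjusted p under 0.05, beside 29.1%, and DESeq2 called 2 (Tff3 and Aoc1), beside 11.0%. Without ET replicate 2, edgeR called 3 (Tff3, Krt20 and Aoc1), beside 31.0% of all genes tested in that fit, and without WT replicate 1 it called 1 (Cdx2), beside 6.93%. Leaving out either library raised the calls over all genes, so these counts are no result about the 8 genes. The K238R-labelled libraries and WT did not overlap in 4 genes (Cdh17, Tff3, Krt20 and Aoc1), beside 23.8%. Of these, Cdh17 and Aoc1 had passed the filter with no K238R-labelled library at its cutoff. 4 genes had an unadjusted p under 0.05 there, beside 17.6%, and DESeq2 called 1, Aoc1, beside 4.27%. Between K412R and WT only Krt20 did not overlap, beside 32.3%, and no gene was called by edgeR, beside 2.02%, or by DESeq2, beside 9.18%. 1 gene had an unadjusted p under 0.05 there, beside 22.8%. Against ET, only Aoc1 in the K238R-labelled libraries (beside 9.34%) and Tff3 in K412R (beside 11.3%) did not overlap. Neither comparison with ET had a call by edgeR (0% of all genes tested in both) or, among these genes, by DESeq2 (beside 0.0761% and 0.542%), and each had 1 gene with an unadjusted p under 0.05, beside 5.58% and 7.86%. The comparisons share their WT or ET libraries and are not independent of each other. The 8 genes had a median log2 fold change of 0.06 for WT to ET, 0.16 for the K238R-labelled libraries to WT and 0.04 for K412R to WT, beside -0.0073, 0.00078 and 0.0097 over all genes tested.

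The genes did not share one pattern. Over the 12 libraries, 14 of 28 pairs of the 8 genes had a positive Pearson r of log2(CPM + 0.5) and 14 a negative one, with a median of 0.05. Aoc1, Tff3 and Cdh17 were alike, with r of 0.74 for Tff3 and Aoc1, 0.76 for Cdh17 and Aoc1 and 0.68 for Cdh17 and Tff3. With the group means removed these became 0.60, 0.36 and 0.52. Cdx2 ran against all of them, at -0.73 with Cdh17, -0.59 with Tff3 and -0.54 with Aoc1. The 12 points share 4 groups, and low counts add noise to each of them, so these values only describe the libraries.

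**Figure D4:**
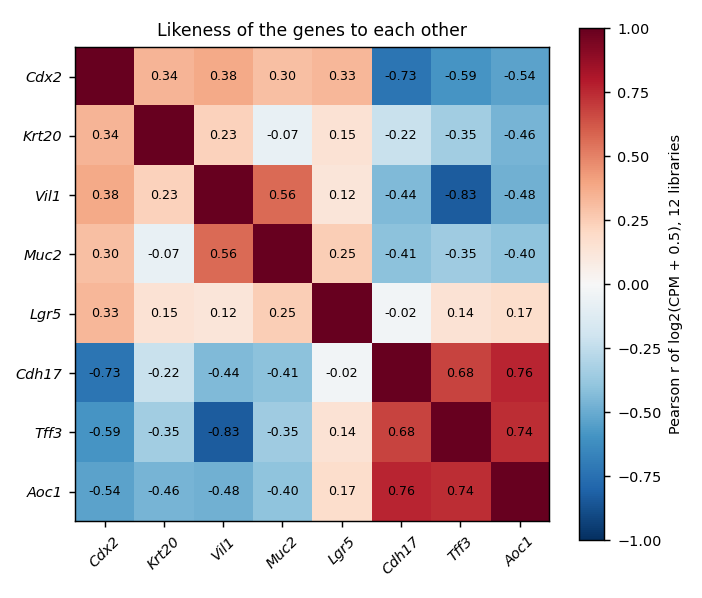
Pearson r of log2(CPM + 0.5) over the 12 libraries for each pair of the 8 tested genes. Cdh17, Tff3 and Aoc1 form a block of positive values (0.68 to 0.76) and are negative against Cdx2.

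The genes whose pattern over the 12 libraries was most like that of Aoc1 were Cdhr4 (r = 0.93), Prrg4 (0.93) and Cxcl17 (0.93), and those most like Tff3 were Tppp3 (0.92), Sytl1 (0.92) and Micall1 (0.91). Nearest to Cdx2 were Scrn2 (0.96), Cmc1 (0.94) and Lefty1 (0.93), and nearest to Krt20 were Meioc (0.92), Kirrel2 (0.91) and Hycc1 (0.91). Cdh17 was most like Inpp4b (0.89), Tmem38b (0.89) and Norad (0.88). Lgr5 was nearest to Ier3 (0.93), Flt1 (0.92) and Efl1 (0.89), Muc2 to En1 (0.89), Ankzf1 (0.87) and Rad9b (0.87), and Vil1 to Rnmt (0.91), Foxb1 (0.89) and Snhg7 (0.87). The mean of the 8 genes was most like Osbpl3 (0.89), Ier3 (0.87), Igfbp3 (0.86), Asph (0.85), Rora (0.85), Hepacam2 (0.84), Wdr19 (0.83), Rbms1 (0.82), Bhlhe40 (0.82) and Kcnj2 (0.80).

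Genes of other mucous epithelia and of the urothelium were read beside Aoc1 and Tff3, and none was called by edgeR between the K238R-labelled libraries and WT. Of 7 tested airway genes 5 had a negative log2 fold change there, with a median of -0.27, as had 4 of 7 tested goblet cell genes (median -0.10) and 3 of 4 urothelial genes (median -0.85). Of 10 tested stomach genes 5 were negative and 5 positive (median -0.10), with 0 at an unadjusted p under 0.05. Lactoferrin (Ltf), a product of airway and other glands, ranged from 1.52 to 4.15 CPM in ET, 7.25 to 11.2 in WT, 1.64 to 2.31 in the K238R-labelled libraries and 3.70 to 9.13 in K412R. Its log2 fold change in the K238R-labelled libraries to WT was -2.33 ± 0.41 (adjusted p = 0.0501). Others of the airway list lay near 0 or above it, Foxj1 at 0.01 and Sftpc at 0.35 (adjusted p = 0.988 and 0.495). The airway mucin Muc5b differed by -2.27 ± 0.56 there (adjusted p = 0.104), the goblet cell disulfide isomerase Agr2 by -1.62 ± 0.50 (adjusted p = 0.154), and the urothelial plaque protein Upk1b by -1.42 ± 0.62 (adjusted p = 0.269). The 12 airway genes summed to 67.7 to 120 CPM in ET, 102 to 116 in WT, 81.7 to 94.6 in the K238R-labelled libraries and 107 to 137 in K412R, and 5 of the 12 never reached 10 counts. The 5 urothelial genes summed to 5.07 to 21.1, 16.2 to 21.0, 5.24 to 11.5 and 15.0 to 22.0 CPM in the same order. The part of these cells in the Aoc1 difference was not tested.

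Among 176 genes of 13 further lists, 124 were tested, and in K412R against WT 10 rose and 1 fell, 8.87% of them beside 2.02% of all genes. By edgeR no gene was called in WT against ET, in the K238R-labelled libraries against WT or in K412R against ET. In K412R against ET no gene of all those tested was called either. The ET values of the 11 called genes are given below. In WT against ET 37 (29.8%) had an unadjusted p under 0.05, beside 29.1% of all genes, and DESeq2 called 16 (14.5% of those it adjusted), beside 11.0%. In the K238R-labelled libraries against WT 42 (33.9%) had an unadjusted p under 0.05, beside 17.6%, and DESeq2 called 19 (15.3%), beside 4.27%. The lists were chosen with earlier results known, so these shares are a description. The 11 calls of K412R against WT changed with single libraries, with 0 left without WT replicate 2, WT replicate 3, K412R replicate 1 or K412R replicate 3, 4 or 5 without ET replicate 1, K238R-labelled replicate 3 or K412R replicate 2, and 17 or 21 without WT replicate 1 or ET replicate 2. Without ET replicate 2 there were 43 calls in WT against ET, 20 in the K238R-labelled libraries against WT and 16 in K412R against ET, beside 31.0%, 4.30% and 1.36% of all genes. Without WT replicate 1 there were 13 and 3 in the first 2 of these, beside 6.93% and 0.303%. Of the 16 gut transcription factors, 13 were tested, and Foxa1, a pioneer factor of endoderm and floor plate, rose in K412R against WT, from 64.9 ± 6.20 to 136 ± 29.9 CPM (log2 fold change 1.07, adjusted p = 0.0138). Foxa1 stood at 95.3 ± 8.36 CPM in ET. Its relative Foxa2 stood at 82.2 ± 18.3 CPM in ET, 28.1 ± 15.0 in WT, 66.4 ± 11.7 in the K238R-labelled libraries and 66.7 ± 8.01 in K412R, and its differences did not pass (adjusted p of 0.0628 to 0.104 in the comparisons of the other groups with WT). Klf5 stood at 58.2 ± 6.05 CPM in WT and 71.5 ± 6.35 in K412R (adjusted p = 0.338).

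In the stem and crypt list 3 of 14 genes rose in K412R against WT, where 2.02% of all genes were called, namely Prom1, a membrane protein of many progenitors (log2 fold change 1.24, adjusted p = 0.0104), Olfm4, a crypt stem cell glycoprotein (1.40, 0.0310), and Smoc2, a matrix protein of crypt cells (1.13, 0.0449). Ephb2 and Lrig1 had values of 0.13 and -0.03 (adjusted p = 0.511 and 0.921). Mean CPM in ET, WT and K412R was 343, 202 and 477 for Prom1. It was 4.14, 1.74 and 4.597 for Olfm4 and 43.1, 23.9 and 52.3 for Smoc2. In the enterocyte list edgeR called no gene in any comparison. In WT against ET and in the K238R-labelled and K412R libraries against WT, 3, 5 and 1 of 12 had an unadjusted p under 0.05, beside 29.1%, 17.6% and 22.8% of all genes. DESeq2 called 1, 2 and 0 there, beside 11.0%, 4.27% and 9.18%. The most highly counted genes of this list were Anpep, Mttp and Cubn. Anpep, a brush border peptidase found in many tissues, was at 29.5 ± 3.08 CPM in WT and 18.1 ± 3.15 in the K238R-labelled libraries (adjusted p = 0.104), and Mttp, which loads lipoproteins, was at 12.8 ± 1.09 and 13.3 ± 1.27 CPM. No goblet, Paneth, enteroendocrine, stomach or urothelial gene was called by edgeR in any comparison, with 0 to 4 genes of each list at an unadjusted p under 0.05. In the same 3 comparisons these were 1, 1 and 0 of 7 goblet and 1, 2 and 1 of 2 Paneth genes. They were 4, 1 and 2 of 11 enteroendocrine, 1, 0 and 2 of 10 stomach and 0, 2 and 0 of 4 urothelial genes, beside the shares above. DESeq2 called 1 goblet and 1 enteroendocrine gene in the K238R-labelled libraries against WT, beside 4.27% of all genes. It called 1 enteroendocrine gene in K412R against WT, beside 9.18%. The most highly counted of these lists were Galnt12, Ern2 and Agr2, Lyz1, Defa30 and Itln1, Chgb, Chga and Sst, Muc1, Pgc and Muc6, and Upk1b, Upk3a and Upk1a.

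Genes of epithelia in general were highest in K412R. Their summed CPM was 331 to 530 in ET, 449 to 532 in WT, 334 to 426 in the K238R-labelled libraries and 620 to 773 in K412R, and 13 of 14 had a positive log2 fold change in K412R against WT with a median of 0.40, beside 0.0097 over all genes. Cldn6, a claudin of embryonic epithelia, was the 1 of 14 that passed edgeR's test (1.55, adjusted p = 0.0218). Its means were 9.96 CPM in ET, 4.72 in WT and 13.9 in K412R. Krt8 differed by 0.61 (adjusted p = 0.101), Krt18 by 0.81 (0.0661) and Krt19 by 0.16 (0.768). The lung surfactant gene Sftpc rose by 1.21 (adjusted p = 0.0434), and the ciliated cell factor Foxj1 differed by 0.47 (0.137). Among liver and yolk sac genes Rbp4, the retinol carrier, rose by 1.33 (0.0267), and Trf and Serpina1b differed by 0.02 and 0.14 (0.964 and 0.797). Sftpc stood at 4.21 CPM in ET, 2.99 in WT and 6.96 in K412R, and Rbp4 at 5.89, 2.83 and 7.14.

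Cdx2 also acts in trophoblast and the posterior embryo, and those lists were read beside it. Eomes, a T-box factor of both, was higher in K412R than in WT (1.41, adjusted p = 0.0483), at 2.51 ± 1.03 CPM in WT and 6.72 ± 1.47 in K412R. In ET it stood at 6.72 ± 1.54 CPM. Prl3b1, a placental lactogen, was at 0.0378 ± 0.0654 CPM in WT and 1.03 ± 0.726 in K412R (adjusted p = 0.0449). In ET it was at 0.301 ± 0.232 CPM, and its reads are shareable with related prolactin genes. The posterior mesoderm factor T rose by 2.03 (0.0377), and Hoxb9 fell by 2.76 (0.0418). Tfap2c and Fgf8 differed by 0.89 and 1.71 (adjusted p = 0.250 and 0.140). The 15 trophoblast genes summed to 16.7 to 29.1 CPM in ET, 6.68 to 13.0 in WT, 17.7 to 49.6 in the K238R-labelled libraries and 20.8 to 22.4 in K412R. The 12 posterior genes summed to 52.5 to 70.5, 18.3 to 45.9, 35.0 to 51.3 and 47.6 to 61.6 CPM in the same order. T had the highest mean CPM of the 12 in every group, so these sums weigh it most. Of the 9 tested posterior genes, 6 had a negative log2 fold change in K412R against WT, with a median of -0.85. Of the 11 tested trophoblast genes, 9 had a negative one in WT against ET (median -1.62). In the K238R-labelled libraries against WT 11 were positive (median 2.55), and in K412R against WT 10 (median 1.13). The trophoblast sum was lower in WT than in every other library, the posterior sum in WT overlapped that of the K238R-labelled libraries, and their part in the Cdx2 values was not tested.

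**Figure D5:**
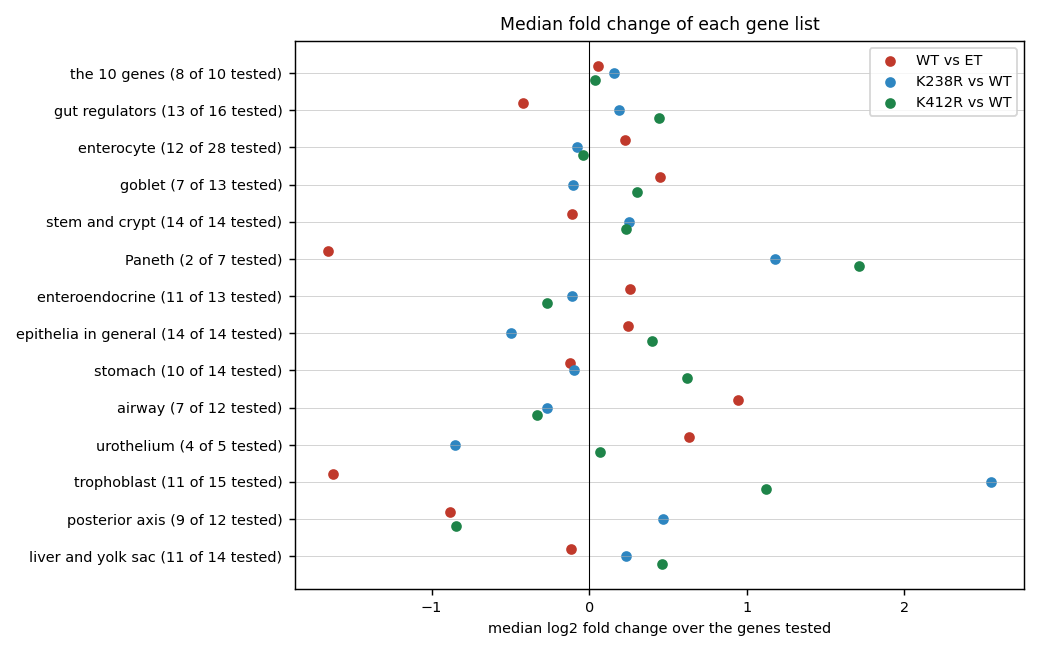
Median log2 fold change over the tested genes of each list in the comparisons of WT with ET, of the K238R-labelled libraries with WT and of K412R with WT. The 10 genes have medians of 0.06, 0.16 and 0.04, and the Paneth value rests on 2 genes.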

How the data were processed

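Poly(A)-selected RNA of 12 teratomas was made into libraries with the CORALL RNA-seq V2 kit. The authors deposited 1 table of estimated counts per gene and library, as whole numbers, which are called counts here. By the study's methods, fastp trimmed the reads, STAR mapped them and Salmon quantified them, and the submitters' processing notes add GATK and the genome build GRCm39. The versions of these tools were not used here. The annotation, the strand setting and any use of molecular identifiers are not given in the sources used here. RefSeq promoter windows came from GRCm38.p6, a different build, and their coordinates were not joined to the deposited files.

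Each library was placed in its group by its title. CPM was the count scaled by the product of the total count and the TMM factor. Genes were filtered with filterByExpr (minimum count 10) and tested with edgeR's quasi-likelihood test (edgeR 4.0.16, R 4.3.3) over all 12 libraries with 1 mean per group, and p-values were adjusted by Benjamini-Hochberg over 18405 genes. DESeq2 1.42.0, other scalings, no filter, a replicate block and leaving out libraries were alternatives. The test script was tested on simulated data.

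The genes and lists were chosen with earlier results of these data known. Named genes were the 10 genes, the 3 most highly counted genes of each list, list genes with an adjusted p under 0.05, the 3 genes most like each tested gene and the 10 most like their mean, and Dnmt3l. 1 gene that this rule names is not reported here. Correlations used log2(CPM + 0.5) and genes with a mean of at least 1 CPM. The labels do not say whether the 3 libraries of a group came from separate mice, so p-values measure only the spread between these samples, which may be technical. Replicates of a group differed by more than counting noise (chi-square per degree of freedom 10.9 to 55.1).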

Additional observations from a re-analysis of the deposited data

How the results depend on the processing

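Of the 10 genes, the number called in WT against ET was 0, and 2 with DESeq2 and 4 without ET replicate 2 and WT replicate 1 together. In the K238R-labelled libraries against WT it was 1, and 0 with library totals and 3 without both libraries. In K412R against WT it was 0, and 1 without both. The fits without both called 37.5%, 11.3% and 18.2% of all genes in these comparisons. DESeq2 called 11.0% in the first, and edgeR with library totals called 0.0761% in the second. With each library left out in turn these counts ran from 0 to 3, 0 to 1 and 0 to 1, and were 0 in both comparisons with ET. Aoc1 in the K238R-labelled libraries against WT had a log2 fold change of -3.13 and an adjusted p of 0.0552 with library totals. The calls for the further lists are given with the share of all genes called in the same fit in brackets. WT against ET gave 0 (0.0489%), and 16 with DESeq2 (11.0%), 5 with no filter (0.624%) and 47 without both libraries (37.5%). The K238R-labelled libraries against WT gave 0 (0.174%), and 1 with DESeq2 size factors in edgeR (0.196%) and 19 with DESeq2 (4.27%). They gave 6 with no filter (0.875%), 7 with only the 2 groups compared (2.03%) and 29 without both (11.3%). K412R against WT gave 11 (2.02%), and 23 with DESeq2 (9.18%) and 17 with no filter (1.98%). It gave 25 with only the 2 groups (10.7%) and 30 without both (18.2%). K412R against ET gave 0 (0%), and 3 with DESeq2 (0.542%) and 18 without both (1.98%). With 1 library left out they ran from 0 to 43, 0 to 20, 0 to 21 and, for K412R against ET, 0 to 16. The cause of these changes was not tested. With the replicate block, the further lists had 9 calls in WT against ET and 4 in the K238R-labelled libraries against WT, and the counts for the 10 genes were unchanged. Over all genes the block called 4.98% and 1.13% in these comparisons, against 0.0489% and 0.174% without it. In K412R against WT it called 6.28%, against 2.02%. Deviations from the group mean had r from -0.46 to 0.40 over 18 pairs of libraries with the same number. Over 36 pairs with other numbers r ran from -0.56 to 0.56. With so few libraries a group, this cannot settle whether the numbers pair the samples. The median pair r of 0.05 was -0.18 with group means removed.

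Without both libraries, differences close to 0 changed sign, for Lgr5 to -0.0096 (WT to ET), 0.12 (K238R-labelled to WT) and 0.11 (K238R-labelled to ET), for Muc2 to -0.0089 (WT to ET), 0.28 (K412R to WT) and 0.27 (K412R to ET), for Vil1 to 0.14 and Tff3 to -0.086 (K412R to WT), and for Krt20 to -0.16 (K412R to ET). Krt20 in the K238R-labelled libraries against ET changed from -0.013 to 0.0052 with library totals and to 0.076 with the replicate block. Counts of 17 or fewer limit Cdx2 and Cdh17, and Cdx1 and Fabp2 could not be tested.

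With 1 library left out, some differences close to 0 changed sign. For Lgr5 they ran from -0.15 to 0.19 (WT to ET), -0.25 to 0.12 (K238R-labelled to WT) and -0.21 to 0.11 (K238R-labelled to ET). For Muc2 they ran from -0.32 to 0.38 (WT to ET), -0.31 to 0.29 (K412R to WT) and -0.24 to 0.29 (K412R to ET). For Vil1 they ran from -0.68 to 0.22 (K412R to WT) and -0.42 to 0.18 (K238R-labelled to ET), for Tff3 from -0.076 to 0.53 (K412R to WT) and -0.084 to 0.56 (K238R-labelled to ET), and for Krt20 from -0.32 to 0.39 (K238R-labelled to ET) and -0.14 to 0.55 (K412R to ET).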
